A study of Mus musculus with 6 samples.

Results

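The genes described here are Angpt2, Tek, Cdh5 and Pecam1, an angiopoietin ligand, its receptor Tie2 and a pair of adhesion molecules of the vessel wall. They were chosen by name, as the genes to which the platform annotation assigns a probe under these symbols, and make up 4 of the 203 named genes on a small array of 223 probes. Each gene had 1 probe, so no second probe could be set beside any value. The RNA was total RNA from cryosections of the soleus, a postural calf muscle, of C57Bl/6 mice, and 3 µg of it was used per array. The 6 samples all belong to 1 group: the labels call each a control mouse, number them 1 to 6 and add the code "HUR wt", which they do not explain. They give no age, sex, treatment or batch and do not say what the controls were meant to be compared with. They also do not say whether each array came from a separate mouse, so p-values over the samples measure a spread that may be technical.

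Angiopoietins act on endothelial cells, the lining of blood vessels, through the receptor tyrosine kinase Tie2, which Tek encodes. Angpt1, made largely by the cells around vessels, activates Tie2 and is linked to stable, resting vessels. Angpt2 is made by endothelial cells, competes for the same receptor and is linked to vessel remodelling. Cdh5 encodes VE-cadherin, the cadherin of endothelial adherens junctions. Pecam1 encodes CD31, an adhesion molecule at endothelial cell contacts that leukocytes and platelets also carry. In skeletal muscle these genes are usually read as markers of the capillary bed. In RNA of whole muscle sections, fewer endothelial cells and less RNA per endothelial cell cannot be told apart.

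The deposited values were linear intensities in arbitrary units, and each array held negative ones. The size of the most negative value of an array served as its noise bound, below which a value has no reliable size. Summed intensities ranged from 31.0 to 125.2 over the arrays, and control 4 was the brightest. Between 109 probes (control 2) and 166 probes (control 6) lay above the bound, and 106 of the 223 probes (47.5%) did so on all 6 arrays. All 6 muscle fibre genes on the array (Myh7, Myh2, Myh1, Myh4, Mb and Ttn) were above the bound on every array and gave 14.1% to 17.0% of the summed intensity. Of 12 endothelial markers, 6 were on the array and 4 were above the bound on every array. The sum of all 6 was 0.225% to 0.805% of the total, lowest in control 1 and highest in control 5. Tek, Cdh5 and Pecam1 are part of this sum. Pecam1 alone gave 0.1573 of 0.2718 in control 5 and 0.0314 of 0.0985 in control 1.

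Angpt2, Cdh5 and Pecam1 gave a signal above the noise bound in all 6 controls, whereas the receptor Tek did so in 5. Tek had intensities of 0.0053, 0.0033, 0.0066, 0.0195, 0.0054 and 0.0043 in controls 1 to 6. These were 1.56, 0.532, 2.00, 2.24, 2.35 and 2.39 times the bound of their arrays, so Tek was above it on 5 arrays, by a small margin, and below it in control 2. The ligand Angpt2 had intensities of 0.0271, 0.0073, 0.0554, 0.1929, 0.0745 and 0.0445. In control 2 it was 1.18 times the bound, and on the other arrays 7.97 to 32.4 times. Angpt2 was thus clearly detected in 5 controls and barely in control 2.

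The adhesion genes were well above the bound throughout. Cdh5 had intensities of 0.0333, 0.0315, 0.0680, 0.2218, 0.0645 and 0.0522, which were 5.08 to 29.0 times the bound. Pecam1 had intensities of 0.0314, 0.0677, 0.0995, 0.1308, 0.1573 and 0.0686, which were 9.24 to 68.4 times the bound. The smallest multiple was that of control 2 for Cdh5 and that of control 1 for Pecam1. Cdh5, Angpt2 and Tek were brightest on control 4, the brightest array, whereas Pecam1 was brightest on control 5.

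**Figure D1:**
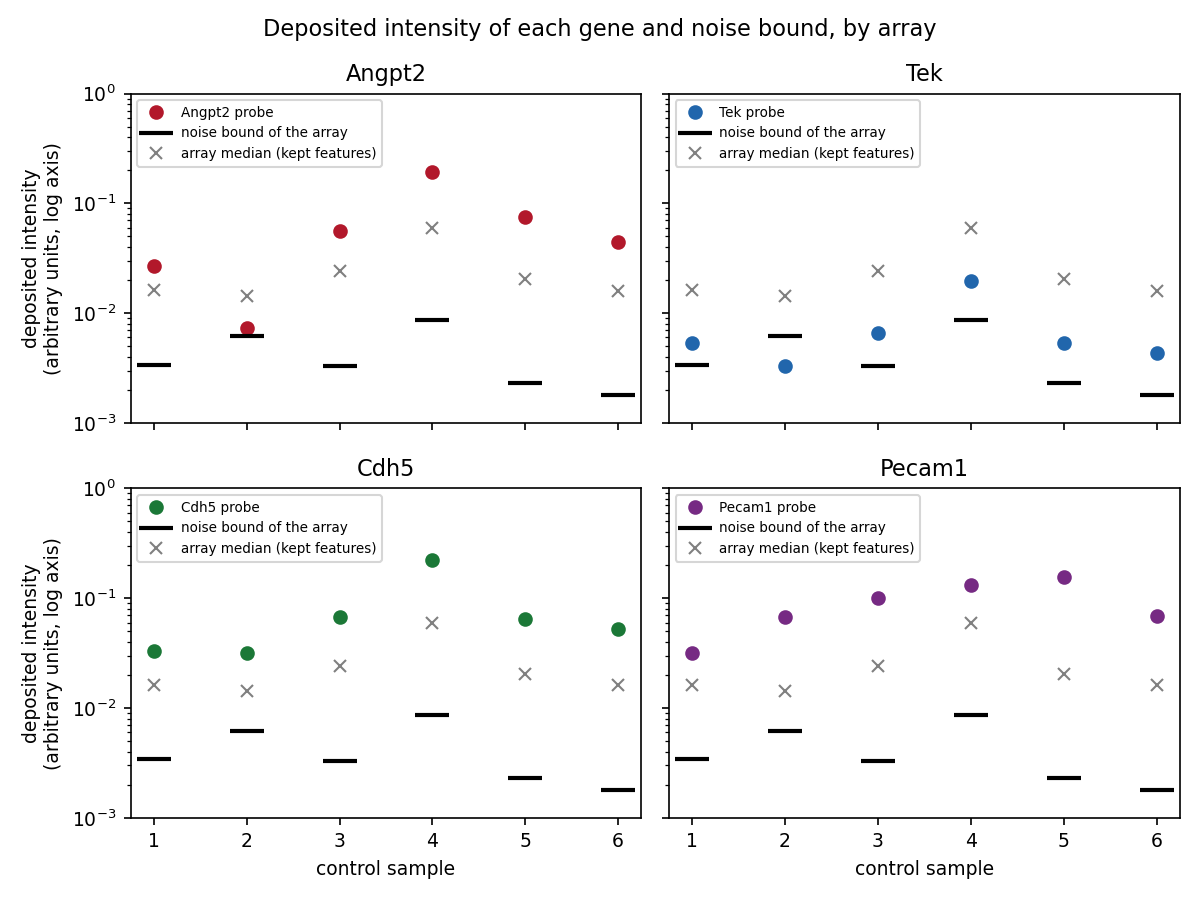
Deposited intensity (arbitrary units, log axis) of Angpt2, Tek, Cdh5 and Pecam1 in controls 1 to 6, as coloured points, 1 panel per gene. Black bars are the noise bound and grey crosses the median of each array; Tek lies under the bound in control 2 and Angpt2 just over it there, at 1.18 times the bound, while Cdh5 and Pecam1 are above it on every array.

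Angpt2 was the only angiopoietin of the array with a signal above the bound. The probe of Angpt1, the activating ligand, read 0.0015, -0.0003, 0.0011, 0.0068, 0.0017 and 0.0005, and that of Angpt4, a further ligand of the family, lay between -0.0017 and 0.0022. Both were above the bound on 0 arrays, as was Nos3, the endothelial nitric oxide synthase, with 0 to 0.0048. These values do not show that the transcripts were absent, since the probes may differ in sensitivity. A probe named Ang2 on the same array belongs to a ribonuclease of the angiogenin family and was not counted as angiopoietin-2.

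To compare the samples, intensities were brought to log2 and each array was centred on its median over the 152 features with an intensity above 0 on all 6 arrays. The resulting level is relative to the array median, and levels of different genes were not ranked because they carry the affinity of each probe. All 4 genes were among the 152. On this scale the noise bound itself lay at -1.21 in control 2 and at -3.16 to -2.24 in the other controls, so control 2 had the least room for dim genes.

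Relative to the array median, Tek held nearly the same level in every control. It was -1.60, -2.12, -1.87, -1.60, -1.93 and -1.90 in controls 1 to 6, a mean of -1.84 ± 0.20 (SD, n = 6). Its highest and lowest samples differed 1.43-fold, although the intensities behind them differed 5.91-fold. Controls 1 and 4 were the highest, and control 2, with a value under its noise bound, was the lowest. Without control 2, with filter and centring redone, the SD was 0.15. It depended on the scaling, at 0.89 without centring, where it carries array brightness, 0.36 with the looser filter of 4 arrays above 0 and 0.12 with a pseudocount.

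Cdh5 also varied little. Its levels were 1.05, 1.14, 1.50, 1.90, 1.65 and 1.70, a mean of 1.49 ± 0.33 (SD, n = 6), with 1.81-fold between the highest and the lowest sample. Controls 1 and 2 were the low samples and control 4 the highest. The SD was 0.29 to 0.38 whichever sample was left out, with filter and centring redone.

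Pecam1, the other adhesion gene, spread more widely and in another order. Its levels were 0.96, 2.24, 2.05, 1.14, 2.94 and 2.10, a mean of 1.90 ± 0.74 (SD, n = 6), and 3.93-fold separated control 5 from control 1. Without control 5 the remaining samples differed by up to 2.43-fold. Control 4, where Cdh5 was highest, had the second lowest Pecam1 level, and control 2, where Cdh5 was low, had the second highest. Of the markers of leukocytes and platelets, which also carry CD31, 1 of 14 was on the array: Csf2rb, a cytokine receptor chain, was above the bound on 4 arrays and at -3.42, -3.70, -1.14, -0.89, -0.48 and -0.00 in controls 1 to 6. Pearson's r of Csf2rb over the 6 samples was 0.34 to Pecam1, 0.90 to Cdh5, 0.84 to Angpt2 and 0.07 to Tek. The part of leukocytes or platelets in the values of these genes was not tested.

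Angpt2 had the widest spread of the 4 genes, and 1 sample made most of it. The levels were 0.75, -0.97, 1.20, 1.70, 1.86 and 1.47, a mean of 1.00 ± 1.04 (SD, n = 6), and the highest and lowest samples differed 7.10-fold. Control 2 was far below the others, at an intensity close to its noise bound. Without control 2, with filter and centring redone, the SD was 0.40. On the levels given above, the remaining samples differed by up to 2.15-fold.

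**Figure D2:**
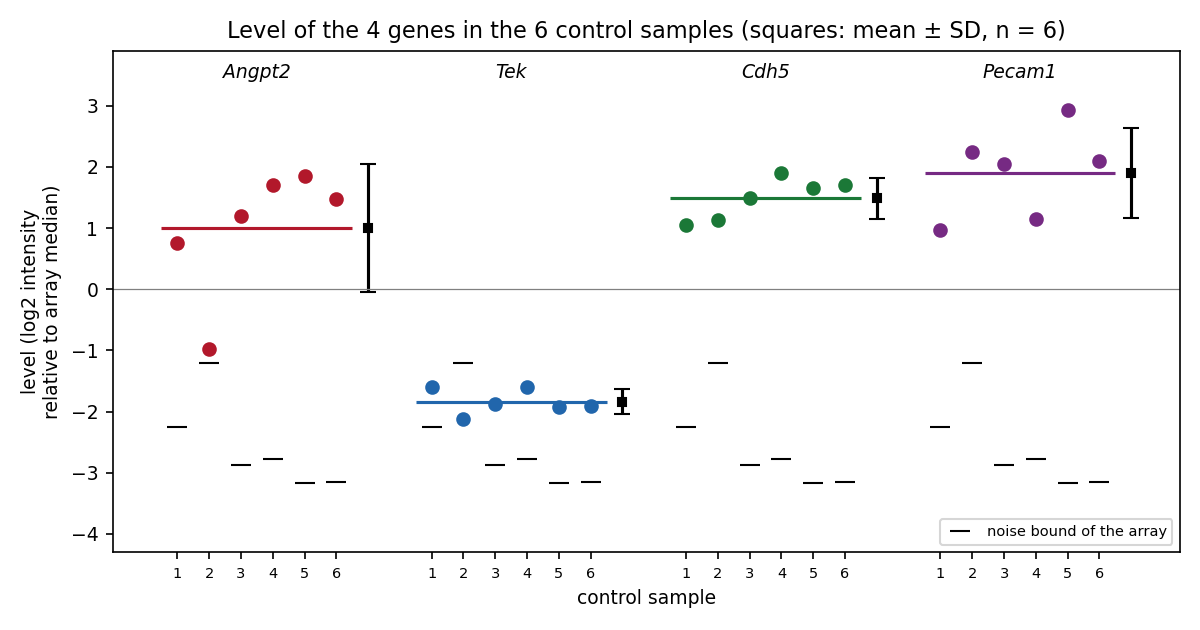
Level (log2 intensity relative to the array median) of Angpt2, Tek, Cdh5 and Pecam1 in controls 1 to 6. Points are samples, coloured lines and black squares the mean, error bars the SD (n = 6) and black dashes the noise bound of each array; Tek stays between -2.12 and -1.60, while Angpt2 in control 2, at -0.97, is far below its other samples.

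The spread of each gene was then read against that of features of like intensity, with limma's intensity-trended prior variance and an F test in each direction. The median SD of the 152 features was 0.54, with quartiles of 0.36 and 0.79, and that of the 4 genes was 0.53. None of the 4 passed for excess spread, a test that 2 of the 152 features passed (1.32%). In limma, Angpt2 had 2.23 times the prior SD with an unadjusted p of 0.0368 and an adjusted p of 0.703, and 9 of the 152 features (5.92%) had an unadjusted p under 0.05. Without control 2 its SD was below the prior SD. Pecam1 had 1.50 times the prior SD (adjusted p = 0.911 in limma).

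In the other direction, Tek had 0.256 times the prior SD. Its unadjusted p for low spread in limma was 0.00440 and its adjusted p 0.223, and it ranked 8th from the smallest SD among the 152 features. No feature of the table passed for low spread after adjustment in limma (0 of 152), and 9 had an unadjusted p under 0.05 (5.92%). Tek is dim, and features at its level had a prior SD of 0.78, against 0.48 for those at the level of Cdh5. Cdh5 had 0.691 times its prior SD (adjusted p = 0.942 for low spread in limma).

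**Figure D3:**
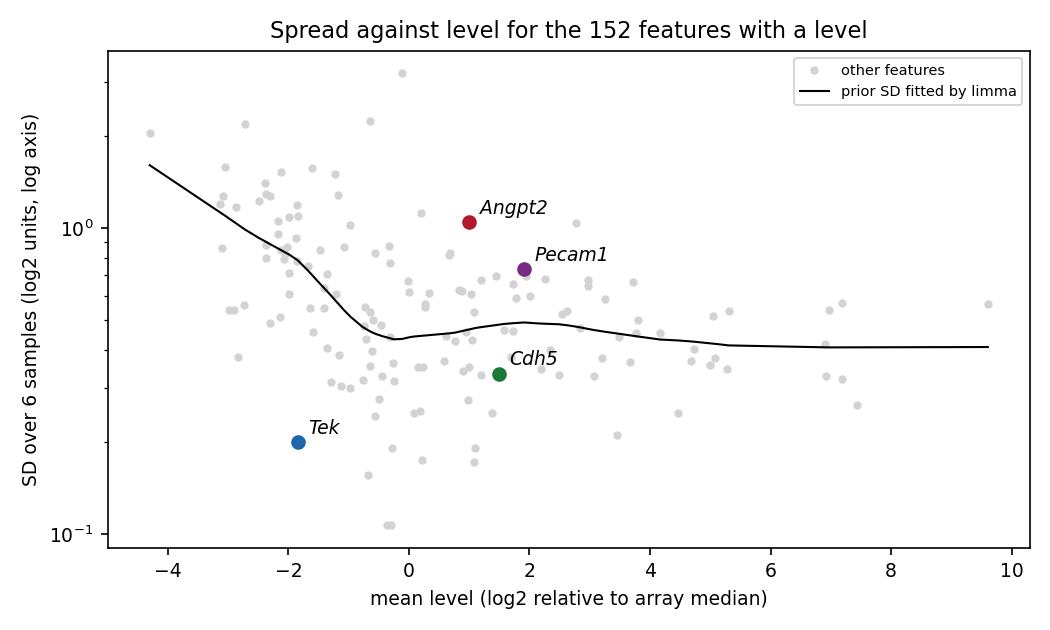
SD over the 6 samples (log2 units, log axis) against the mean level (log2 relative to the array median) for all 152 features; the 4 genes are coloured and labelled, other features are grey and the line is limma's prior SD. Tek (SD 0.20) lies far below the line for its level and Angpt2 (SD 1.04) above it, and neither passed the test after adjustment over the 152 features.

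Whether the 4 genes went up and down together was asked for each of the 6 pairs, with an exact two-sided permutation test over all 720 pairings of the samples. Adjustment covered all 11476 pairs of the 152 features. The mean r over the 6 pairs was 0.135, against 0.040 over all pairs, and 5 of the 6 were positive, against 52.7% of all pairs. By ranks, the mean Spearman's rho over the 6 pairs was 0.038. No pair of the 4 genes passed after adjustment, nor did any of the 11476 pairs (0%), whose smallest adjusted permutation p was 0.192. The smallest unadjusted permutation p was 0.00139, the least that 720 pairings can give. Adjusted over 11476 pairs, even that value leaves little room to pass. A pair that did not pass is therefore not shown to be unrelated. At an unadjusted p under 0.05 there was 1 of the 6 pairs, against 16.7% of all pairs.

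Angpt2 and Cdh5, the ligand and the junction cadherin, had the highest r of the 6 pairs. Both were lower in controls 1 and 2 than in controls 3 to 6. Pearson's r was 0.76 (exact permutation p = 0.0528, adjusted p = 0.299) and Spearman's rho 0.77 (exact p = 0.103, adjusted p = 0.412), and 13.1% of all pairs had a larger r. Leaving out controls 1 and 2, which lay farthest from the median Angpt2 level, gave an r of 0.60 over 4 samples. It was positive under all 16 alternatives, from 0.75 to 0.92, with adjusted permutation p from 0.131 to 0.512.

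Tek and Pecam1, the receptor and the adhesion molecule, went in opposite directions in the main setting. Controls 1 and 4, highest for Tek, were the lowest for Pecam1. Pearson's r was -0.82 (exact permutation p = 0.0319, adjusted p = 0.260) and rho -0.94 (exact p = 0.0167, adjusted p = 0.254). Leaving out controls 1 and 4, which lay farthest from the median Tek level, gave an r of -0.05 over 4 samples. These included control 2, where Tek was 0.532 times its noise bound. With any 1 sample left out, r stayed between -0.97 and -0.72. The direction depended on the scaling of the arrays: r was 0.45 without centring, 0.20 after quantile normalization and -0.03 after cyclic loess normalization. With values raised to the noise bound, which changes Tek in control 2, r was -0.04. It was -0.37 with the looser filter, -0.60 with centring on features above the bound and -0.83 with the pseudocount. Over the 14 alternatives the adjusted permutation p was 0.254 to 0.971.

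The ligand and its receptor did not have a settled relation. For Angpt2 and Tek r was 0.52 (exact permutation p = 0.304, adjusted p = 0.588) and rho 0.03 (exact p = 1, adjusted p = 1), and control 2 was the lowest sample of both. Leaving out controls 1 and 2 gave an r of 0.18, and leaving out control 2 alone, with filter and centring redone, gave -0.79. It was also negative after quantile normalization (-0.53), after cyclic loess (-0.49) and with values raised to the noise bound (-0.87).

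The endothelial markers Tek, Cdh5 and Pecam1 did not share a common order of samples. For Tek and Cdh5 r was 0.19 (exact permutation p = 0.685, adjusted p = 0.848), with a rho of -0.03 (exact p = 1, adjusted p = 1). Leaving out controls 1 and 4 raised that r to 0.86, and it was positive under 7 and negative under 7 of 14 alternatives. For Cdh5 and Pecam1 r was 0.15 (exact permutation p = 0.735, adjusted p = 0.871), with a rho of 0.14 (exact p = 0.803, adjusted p = 0.936). That r turned to -0.61 when controls 1 and 2 were left out. For Angpt2 and Pecam1 r was 0.01 (exact permutation p = 0.982, adjusted p = 0.992), with a rho of 0.26 (exact p = 0.658, adjusted p = 0.866). Leaving out the same samples gave 0.21. Values from 6 samples do not show that these genes vary independently.

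**Figure D4:**
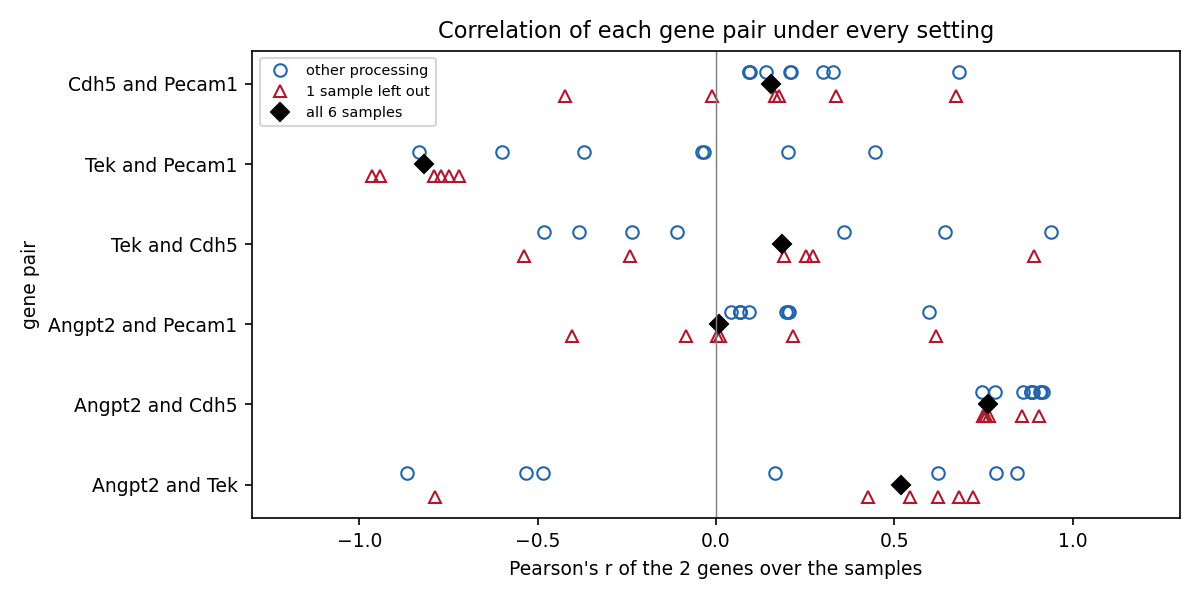
Pearson's r over the samples for each pair of the 4 genes with all 6 samples (black diamonds), under other processing (blue circles) and with 1 sample left out (red triangles). Angpt2 with Cdh5 stays between 0.75 and 0.92, whereas every other pair lies on both sides of 0.

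The levels were also set beside 2 measures of the arrays, the number of probes above the noise bound and the array median. Angpt2 was highest where many probes lay above the bound, with r = 0.97 (exact permutation p = 0.00972, adjusted over 8 such relations to p = 0.0778) and rho = 0.83 (exact p = 0.0583, adjusted p = 0.411). Leaving out controls 2 and 6, which lay farthest from the median number of probes, gave an r of 0.94. For Cdh5 r was 0.72 (exact permutation p = 0.0875, adjusted p = 0.267), with rho = 0.77 (exact p = 0.103, adjusted p = 0.411). Over the other 4 samples r was 0.77. For Tek and Pecam1 r was 0.42 (exact permutation p = 0.432, adjusted p = 0.573) and 0.08 (exact p = 0.881, adjusted p = 0.881). Without controls 2 and 6 these changed to -0.70 for Tek and 0.82 for Pecam1. The part of this measure in the shared course of Angpt2 and Cdh5 was not tested. Relations with the array median, the other 4 of the 8, had adjusted permutation p of 0.267 to 0.573.

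Other vascular genes were taken from lists of the angiopoietin pathway, of junctions and adhesion, of VEGF signalling and of further endothelial functions. Beside the 4 genes, 13 of them had a level, with a median SD of 0.50, and 0 passed limma's test for excess or low spread. Of their 52 pairs with the 4 genes, 8 had an unadjusted permutation p under 0.05 (15.4%), close to the 16.7% of all pairs, and 0 passed after adjustment. The VEGF receptors had different courses. Flt1 (VEGFR1) had levels of -1.33, -1.03, -0.26, -0.60, -0.04 and -0.28, low in controls 1 and 2 like Cdh5 and Angpt2, with r = 0.76 (rho 0.49) to Cdh5 and 0.66 (rho 0.71) to Angpt2 (exact permutation p = 0.0958 and 0.128). Kdr (VEGFR2), the main signalling receptor of VEGF-A, had 0.30, 0.53, 0.09, 0.17, 0.14 and 0.07, highest in control 2, and an r of -0.92 to Angpt2 (exact permutation p = 0.0306; rho -0.54).

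Among the adhesion genes, Cd34, a sialomucin of capillary endothelium and progenitors, had levels of 0.43, 1.43, 0.94, 1.24, 1.14 and 0.83. Its r was 0.47 (rho 0.49) to Pecam1 and 0.31 (rho 0.26) to Cdh5. Itgb1 and Itgav went the other way, with r = -0.81 (rho -0.83) and -0.55 (rho -0.49) to Pecam1. To Cdh5 they had -0.60 (rho -0.37) and -0.73 (rho -0.83). Vcam1, above the bound on 3 arrays, had 0.79 (rho 0.71) to Pecam1 and 0.30 (rho -0.14) to Cdh5. Ace, the angiotensin-converting enzyme of the endothelial surface, was lowest in control 5, where Pecam1 was highest, and had an r of -0.95 to it (exact permutation p = 0.0111; rho -0.77). Efnb2, an arterial ephrin, had r = 0.84 (rho 0.60) to Cdh5 and 0.76 (rho 0.77) to Angpt2.

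Markers of other cell types were set beside the 4 genes. With Cdh5, Pecam1 and Angpt2 all 6 muscle fibre genes had a negative r, with medians of -0.63, -0.58 and -0.70. Mb was near 0 with Pecam1 (r = -0.02) and had a rho of 0.20 to Cdh5. A negative r was not particular to fibre genes. The adipocyte marker Fabp4 had -0.57 to Cdh5, -0.36 to Pecam1 and -0.85 to Angpt2. The fibroblast markers Pdgfra and Fn1 had -0.57 and -0.51 to Cdh5, -0.54 and -0.34 to Pecam1, and 0.02 and -0.03 to Angpt2. Over all 148 features besides the 4 genes, fibre genes included, r was positive for 65 with Cdh5, 43 with Pecam1 and 62 with Angpt2, with medians of -0.24, -0.37 and -0.17. Tek had a positive r to 5 of the 6 fibre genes and a median of 0.13, against 97 of these 148 features and a median of 0.19. The difference between Tek and the other 3 genes was not tested. Pdgfrb, a receptor of the mural cells around capillaries and the only 1 of 8 mural markers on the array, was above the bound on all 6 arrays and had r = 0.59 (rho 0.71) to Angpt2, 0.54 (rho 0.37) to Cdh5, 0.25 (rho 0.09) to Pecam1 and 0.23 (rho 0.14) to Tek. These correlations are descriptions over 6 samples that share the centring of each array.

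**Figure D5:**
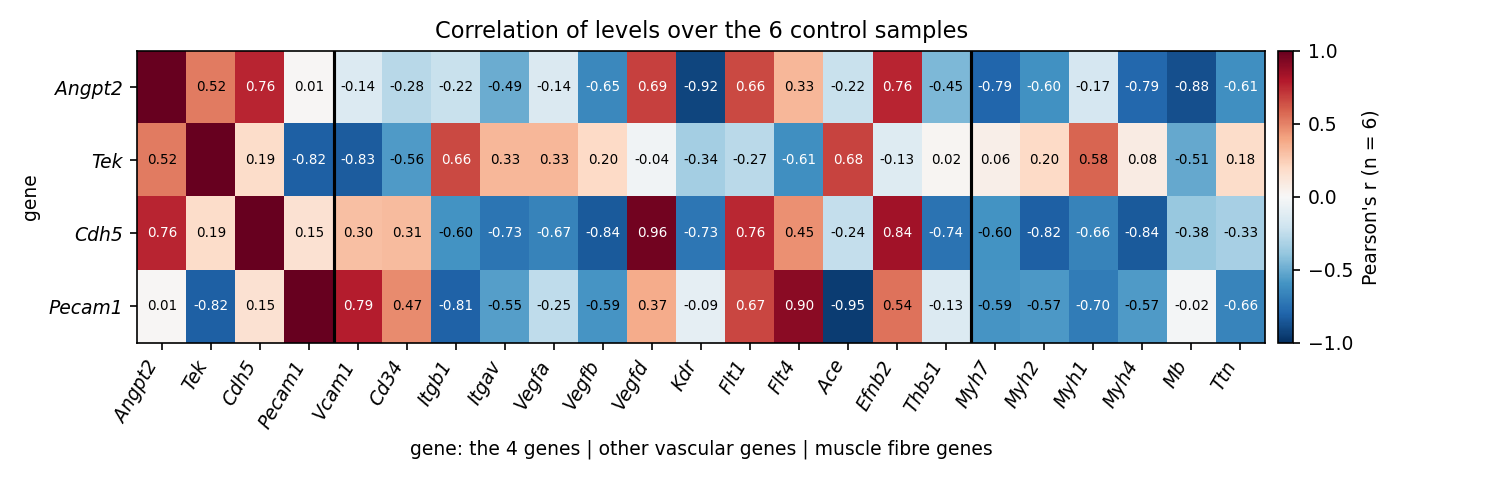
Pearson's r over the 6 samples between each of the 4 genes (rows) and, from left to right, the 4 genes, 13 other vascular genes and 6 muscle fibre genes (columns); red is positive and blue negative. The fibre genes are blue for Angpt2, Cdh5 and Pecam1, though Mb with Pecam1 is near 0 (r = -0.02), and the vascular genes hold both colours in every row.

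The named genes whose levels were most like each of the 4 over the 6 samples were taken as the 3 with the highest r. For Angpt2 they were Pold1, a DNA polymerase subunit (r = 0.99), Fst, follistatin (0.98), and Pparg, a nuclear receptor (0.95). In control 2 these read 0.129, 0.177 and 0.210 times the noise bound, so the likeness includes values of no reliable size there. For Tek they were Hk1, a hexokinase (0.95), Itgb5, an integrin subunit (0.86), and Ccnd1, a cyclin (0.83), and in control 2 they read 0.0806, 1.10 and 0.129 times the bound.

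For Cdh5 the most alike was Vegfd, a VEGF-family ligand, with levels of -0.67, -0.02, 0.97, 1.44, 1.21 and 1.13 and r = 0.96 (rho 0.94). Csf2rb2, a cytokine receptor chain (r = 0.95), and Il6st, the shared receptor chain of interleukin-6 signalling (0.91), followed, and all 3 were above the bound on all 6 arrays. In control 2 Vegfd, Csf2rb2 and Il6st read 2.27, 1.11 and 11.9 times the bound, so Csf2rb2 was barely above it there. The probe identifiers of Cdh5 and Vegfd, 11C and 11D, are neighbours, as are 7G and 7H of Tek and Angpt2. Over the 63 pairs of features with neighbouring identifiers the median r was 0.53, against 0.06 over all pairs. Neighbouring identifiers can also hold related genes, as 6E to 6J do for VEGF ligands and receptors. The layout of the array is not given in the sources used here, and the part of probe position or of gene family in these values was not tested. For Pecam1 the most alike were Flt4 (VEGFR3), a receptor of lymphatic endothelium (r = 0.90), Fosl2, an AP-1 factor (0.90), and the growth factor Igf1 (0.89), and Flt4 was above the bound on 4 arrays.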

How the data were processed

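Expression was measured on 6 arrays of control soleus RNA. The deposited table holds 1 intensity per probe and array, on a linear scale with values below 0. How the authors corrected or scaled these intensities is not given in the sources used here. Probes were named through the platform annotation (205 probes with 1 gene, 18 with none). The GRCm38.p6 gene table, used for names only, held 204 of the 205 identifiers.

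Probes above 0 on all 6 arrays were kept, brought to log2, averaged per gene and centred on the array median (152 features, 145 of them named). Spread was tested in R 4.3.3 (limma 3.58.1, statmod 1.5.0) with a robust, intensity-trended prior (6.12 degrees of freedom) and one-sided F tests. Correlations used exact permutation over samples in Python 3.11.15, counting pairings with an absolute r at least as large. Benjamini-Hochberg adjustment covered all features or all pairs, with a threshold of 0.05. Both tests were tested on simulated data. Alternatives were other centrings, normalizations, filters, noise bounds, a pseudocount of 0.00168, priors and each replicate left out. All 4 genes, and the 3 genes most like each by r, were named by rule. Members, lists and tests were chosen with earlier results of these data known. The number of arrays and the signal over background limit the precision.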

Additional observations from a re-analysis of the deposited data

Results flagged for a closer look

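Among the 4 genes and the 13 other vascular genes with a level, 1 of 17 had a sample far from the others by Dixon's criterion, which chance meets in about 1 of 20 groups. Itgb1, the shared beta subunit of many integrins, had a level of 3.27 in control 1, against 2.06 for the next sample and 1.40 for the lowest. Its gap was 0.643 of the range. The low Angpt2 level of control 2 did not meet the criterion.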

How the results depend on the processing

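No paired analysis was possible because the labels define a single group. All adjusted p-values of the 4 genes and their pairs stayed above the threshold under the alternatives run (spread tested in the direction of the main setting). For the pairs this was nearly fixed by the few pairings of the samples, which are fewer still with a sample left out. It does not show that the pairs are unrelated. Tek was above 2 times the noise bound on 3 arrays instead of 5. Without centring, where values carry array brightness, mean levels were -4.51 for Angpt2, -7.35 for Tek, -4.03 for Cdh5 and -3.61 for Pecam1, and the SDs of Cdh5 (1.02) and Pecam1 (0.83) changed sides of their prior, while those of Angpt2 and Tek were 1.58 and 0.89. Centring on features above the bound gave levels of -0.094, -2.93, 0.39 and 0.81, and the noise-bound filter, which drops Tek, gave -0.094, 0.39 and 0.81. With values raised to the bound they were 2.19, -0.49, 2.68 and 3.10. Without the dimmest features, a filter that also drops Tek, Angpt2 was at 0.012, Cdh5 at 0.50 and Pecam1 at 0.91, with the looser filter Tek was at -1.43 and Cdh5 at 1.90, and with the pseudocount Tek was at -1.57. The r of Angpt2 with Tek was -0.53 after quantile normalization, -0.49 after cyclic loess and -0.87 with values raised to the bound. The r of Tek with Cdh5 was -0.38, -0.11 and -0.48 there, -0.24 with the pseudocount and -0.029 as rho. The r of Tek with Pecam1 was 0.45 without centring, 0.20 after quantile normalization, -0.03 after cyclic loess and -0.04 with values raised to the bound. The cause was not tested. With each replicate left out in turn, levels ran from 0.83 to 1.75 for Angpt2, -1.88 to -1.43 for Tek, 1.41 to 1.91 for Cdh5 and 1.70 to 2.19 for Pecam1, and SDs from 0.40 to 1.16, 0.15 to 0.22, 0.29 to 0.38 and 0.60 to 0.83. The r ran from -0.79 to 0.72 for Angpt2 with Tek, 0.75 to 0.91 for Angpt2 with Cdh5, -0.40 to 0.62 for Angpt2 with Pecam1, -0.54 to 0.89 for Tek with Cdh5, -0.97 to -0.72 for Tek with Pecam1 and -0.42 to 0.67 for Cdh5 with Pecam1. Over all features, 0 passed limma for excess spread after cyclic loess or quantile normalization, and likewise with the noise-bound filter, the pseudocount, no trend, no robust estimation or without replicate 2, against 2 in the main setting, and 1 passed for low spread after each normalization.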
